A study of Homo sapiens with 6 samples.

Results

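The genes of oxidative phosphorylation were examined in both genomes of NB4, an established cell line from acute promyelocytic leukemia. Members were the protein-coding genes whose symbols start with NDUFA, NDUFB, NDUFC, NDUFS, NDUFV, SDHA, SDHB, SDHC, SDHD, UQCR, COX4, COX5, COX6, COX7, COX8 or ATP5, together with CYC1 and the protein-coding genes of the mitochondrial genome. This gave 117 of 52992 genes, 104 of them nuclear and 13 mitochondrial. The prefixes also took in 12 assembly factors, which build complexes I and II without staying in them, and 2 readthrough genes. RNA was sequenced from cells that carried Cas9 and a doxycycline-inducible single guide RNA (sgRNA). The control sgRNA was directed against LacZ, a bacterial gene, and sg1 and sg5 were directed against ARID1A, a subunit of SWI/SNF chromatin remodeling complexes. All 3 groups received doxycycline (1 µg/ml for 7 days, per the labels), had 2 replicates each, and differed in the sgRNA, with LacZ labelled wild type and the others ARID1A-deficient. Per the methods of the study, a culture period without doxycycline followed. Transduced cells were sorted by their reporters, with no clone described in the methods, so that edited and unedited alleles can coexist in a culture, and nothing in the labels says whether replicates came from separate cultures, so that p-values measure the spread between these samples, which may be technical.

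Total estimated counts ranged from 46131178 to 54843745 per library, and 18514 genes passed the low-count filter. ARID1A itself was at 155 and 191 CPM (counts scaled to the size of the library, with TMM factors between libraries) in the LacZ group, while sg1 libraries held 211 and 191 CPM and sg5 libraries 124 and 145 CPM. The transcript of an edited gene need not fall, and the protein is not among the values used here. In an immunoblot of the study, NB4 cells with Cas9 and ARID1A sgRNA lost the protein after 7 days of doxycycline. The myeloid marker MPO was abundant in all libraries, with between 13431 and 16825 CPM, whereas ELANE, another promyelocyte marker, was at 0.17 CPM or less, CD34, CD3E, MS4A1, HBA1 and HBB were at or near 0, and CD3D reached 7.24 CPM. Eosinophil and mast cell genes were lower in ARID1A-deficient cells than in LacZ, and 3 of 3 tested (EPX, PRG2 and HDC) were called at a false discovery rate of 0.1 for the mean of both sgRNAs, with log2 fold changes of -1.86, -1.55 and -1.26 and a summed level of 89.9 and 98.3 CPM in LacZ against 31.6 to 36.7 CPM in the other libraries. Without either LacZ library EPX and HDC were no longer called, with adjusted p between 0.2 and 0.245 (edgeR). This list did not follow the division described next. Of 6 promyelocyte markers listed, 5 were tested and none was called. Their median log2 fold change for the mean of both sgRNAs was -0.21, with 0 of 5 above 0. Without sg1 replicate 1 and sg5 replicate 2 it was -0.35, with 0 of 5 above 0. In a principal component analysis over all genes, sg1 replicate 1 and sg5 replicate 2 stood apart, with 34.3 and 46.75 on the first component (34.4% of the variance) against -30.3 to -11.33 in the other 4 libraries. Without the members, their scores were 34.19 and 46.68. No label matches this division, and both LacZ libraries lie on the same side of it. Counts and medians over members and lists are therefore also given without these 2 libraries, as the difference between the mean log2 CPM of the other ARID1A-deficient libraries and that of LacZ, with no test. All contrasts with LacZ share the same 2 control libraries.

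Oxidative phosphorylation takes place at the inner membrane of the mitochondrion. Complexes I and II take electrons from NADH and succinate, complex III passes them to cytochrome c, and complex IV hands them to oxygen, while complexes I, III and IV pump protons whose return through complex V drives ATP synthesis. Complexes I, III, IV and V are built from subunits of both genomes, whereas complex II is wholly nuclear. Mitochondrial genes are transcribed inside the organelle from a circular genome as long RNAs that are then cut, so that their transcripts share a source that the nuclear genes do not.

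Transcript levels were compared between genes on the TPM scale, which accounts for transcript length. The 13 mitochondrial genes together held between 8.47% and 11.1% of TPM, and the 104 nuclear members held between 1.97% and 2.35%. Among mitochondrial genes, the mean TPM of the 6 libraries was highest for MT-ATP6 (13323) and MT-CO2 (13285) and lowest for MT-ND6 (1006), the subunit encoded on the opposite strand from the others. The TPM of MT-ATP8 (10409) and MT-ND4L (12118) rest on short effective lengths, and these genes overlap MT-ATP6 and MT-ND4 by 46 and 7 bases. Among nuclear members, ATP5F1B, the catalytic beta subunit of complex V, was highest at 955 TPM, followed by ATP5MF (835), COX4I1 (819), COX6A1 (779) and UQCRH (737). The medians were 284.5 TPM for complex V, 211 for complex III, 162 for complex II, 142 for complex I, 95.2 for complex IV and 39.3 for the assembly factors. Within complex I, NDUFS5 was highest at 420 TPM and NDUFA6, with 2 matched transcripts, lowest at 6.81 TPM. Transcripts without a match in the annotation are left out of these sums, and their part in this low value was not tested.

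**Figure D1:**
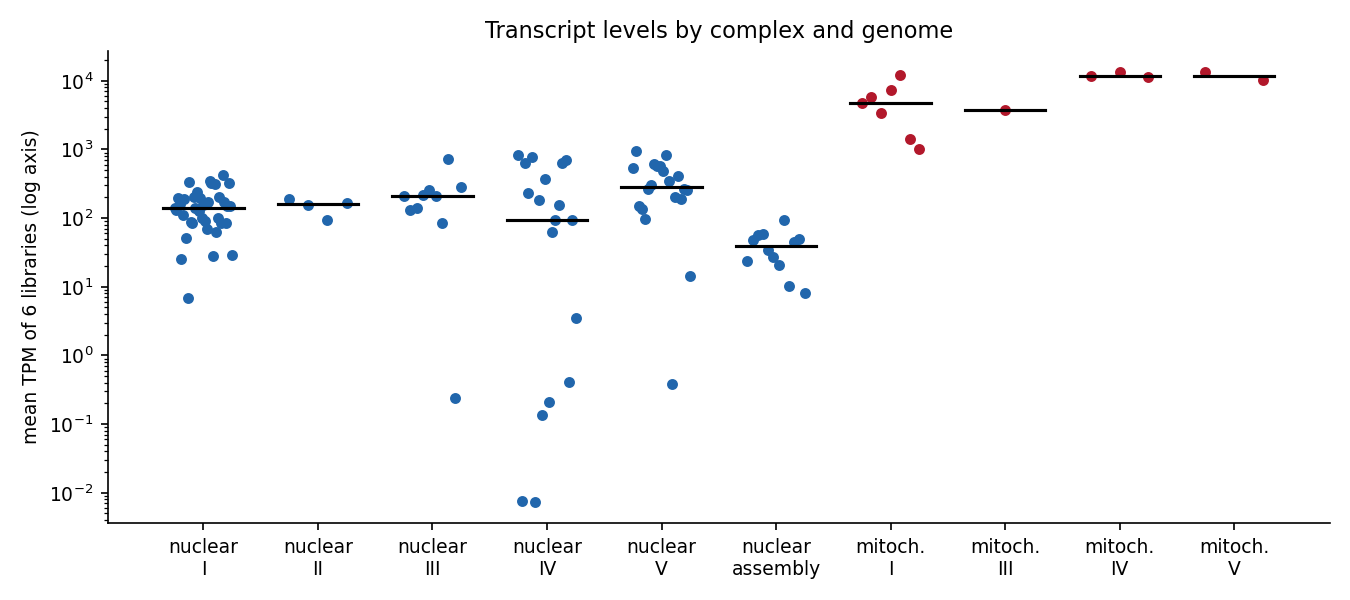
Mean TPM of the 6 libraries (log axis) for each member by complex, with nuclear members in blue, mitochondrial members in red and black lines at the median of the group; COX7B2, at 0, is not drawn, and the 2 readthrough genes are left out. Every mitochondrial gene lies above every nuclear gene, and the values under 1 TPM belong to paralogs such as UQCRHL, COX4I2 and ATP5MGL.

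The low values in complex IV belonged mostly to tissue isoforms, which are paralogs that replace a subunit in particular tissues. COX4I1 (819 TPM) stood against COX4I2 (0.008 TPM), a form used in lung, and COX6A1 (779 TPM) against the heart and muscle form COX6A2 (0.007 TPM). COX8A was at 694 TPM and its paralog COX8C at 0.41 TPM, and COX6B1 was at 181 TPM and the testis form COX6B2 at 0.14 TPM. COX7A2 was at 63.1 TPM, COX7A2L, which takes part in assembling supercomplexes, at 95.2 TPM, and the muscle form COX7A1 at 0.21 TPM. COX7B2 was listed at 0 in all 6 libraries, against 156 TPM for COX7B. The 3 genes for subunit c of complex V, which encode the same mature protein, were all expressed, with ATP5MC2 at 621 TPM, ATP5MC3 at 565 TPM and ATP5MC1 at 301 TPM. The genes UQCRHL, COX4I2, COX6A2, COX7A1, COX7B2 and COX8C did not pass the low-count filter, which left 111 members for testing, 98 nuclear and 13 mitochondrial.

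Promoters are shown for 3 subunits of complex II, the only complex without mitochondrial subunits, and for NDUFA1 and COX7B, which are described below. The sequences are those of RefSeq on GRCh38.p14, from 250 bases before to 50 bases after the start of transcription, 5′ to 3′ on the strand of the gene. Capitals mark matches on either strand to core motifs of factors known for nuclear genes of respiration, namely GCGCANGCG (NRF1), CCGGAAG (ETS factors such as GABPA) and AAGATGGC (YY1).
SDHA (chr5:218070-218369, plus strand): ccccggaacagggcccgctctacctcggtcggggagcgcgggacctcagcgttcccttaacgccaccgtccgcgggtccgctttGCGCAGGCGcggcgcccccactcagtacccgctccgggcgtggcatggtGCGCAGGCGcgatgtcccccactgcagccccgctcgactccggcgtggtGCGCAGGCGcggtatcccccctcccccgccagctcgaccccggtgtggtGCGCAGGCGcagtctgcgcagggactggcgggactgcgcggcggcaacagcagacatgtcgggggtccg
SDHB (chr1:17053983-17054282, minus strand): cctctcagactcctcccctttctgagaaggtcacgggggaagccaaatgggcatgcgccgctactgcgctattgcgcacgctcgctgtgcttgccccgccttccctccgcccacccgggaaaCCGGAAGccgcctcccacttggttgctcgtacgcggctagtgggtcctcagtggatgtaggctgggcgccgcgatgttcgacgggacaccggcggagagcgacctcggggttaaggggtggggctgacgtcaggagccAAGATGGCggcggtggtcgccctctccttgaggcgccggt
SDHD (chr11:112086623-112086922, plus strand): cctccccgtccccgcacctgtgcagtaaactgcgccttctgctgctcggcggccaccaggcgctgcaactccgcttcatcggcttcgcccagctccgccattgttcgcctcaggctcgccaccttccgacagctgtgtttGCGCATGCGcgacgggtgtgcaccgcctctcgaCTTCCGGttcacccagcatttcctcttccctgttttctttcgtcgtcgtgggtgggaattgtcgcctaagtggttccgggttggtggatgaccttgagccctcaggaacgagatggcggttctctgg
NDUFA1 (chrX:119871582-119871881, plus strand): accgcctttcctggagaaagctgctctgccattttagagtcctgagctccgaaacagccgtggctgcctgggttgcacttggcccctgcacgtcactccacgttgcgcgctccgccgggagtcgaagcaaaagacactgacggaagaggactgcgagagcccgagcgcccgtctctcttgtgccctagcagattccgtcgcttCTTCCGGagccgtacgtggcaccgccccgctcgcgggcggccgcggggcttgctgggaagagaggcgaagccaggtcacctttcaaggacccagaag
COX7B (chrX:77899218-77899517, plus strand): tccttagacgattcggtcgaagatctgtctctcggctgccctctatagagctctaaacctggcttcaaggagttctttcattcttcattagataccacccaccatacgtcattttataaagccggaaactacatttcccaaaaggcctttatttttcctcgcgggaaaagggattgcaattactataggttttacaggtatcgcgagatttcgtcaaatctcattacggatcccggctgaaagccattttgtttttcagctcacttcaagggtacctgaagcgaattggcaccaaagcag
The SDHA promoter held the NRF1 core 4 times. SDHB held the ETS and YY1 cores, SDHD the NRF1 and ETS cores and NDUFA1 the ETS core, and COX7B held none of these letters in this window.

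Of the 104 nuclear members, 80 had a promoter in the RefSeq table. The NRF1 core was found in 31.2% of them, against 8.05% of all 27305 promoters and 11% of those of protein-coding genes. The ETS core was found in 27.5%, against 10.7% and 14.2%, and the YY1 core in 13.8%, against 3.03% and 3.91%. At least 1 of these motifs was present in 45 members (56.2%), against 19.2% of all promoters and 25.5% of those of protein-coding genes. A match describes the sequence and does not show binding. The fold changes of ARID1A-deficient cells against LacZ had nearly the same median with a motif as without it: 0.17 on the log2 scale in 24 tested members with the NRF1 core and 0.16 in 53 without it, and 0.16 both in 22 members with the ETS core and in 55 without it. For the YY1 core the medians were 0.15 in 11 members and 0.17 in 66. These 6 medians lay between 0.02 and 0.04 without the 2 libraries that stood apart.

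To ask whether ARID1A deficiency altered these transcripts, each sgRNA and the mean of both were compared with LacZ in a fit over all genes. No member passed a false discovery rate (FDR) of 0.1 in any comparison with the edgeR quasi-likelihood test, nor with DESeq2 or with limma on log2(TPM + 1). Over all genes, edgeR called 0.0378% in sg1 against LacZ, 0.0972% in sg5 against LacZ, 0.167% for the mean of both sgRNAs against LacZ and 0.0054% between sg1 and sg5. At an unadjusted p under 0.05, 10 of the 98 nuclear members tested (10.2%) were higher for the mean of both sgRNAs and none were lower, beside 2.89% of all genes higher and 4.32% lower. For sg5, 8 were higher and 0 lower, beside 2.95% and 4.52% of all genes. For sg1, 2 were higher and 0 lower, beside 1.86% and 2.3%. Between sg1 and sg5, ATP5F1D alone passed p under 0.05, beside 1.38% of all genes. No mitochondrial gene passed it in these comparisons.

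The median log2 fold change of the 98 nuclear members was 0.12 in sg1, 0.17 in sg5 and 0.16 for the mean of both, and 83 of 98 were above 0 for the mean. The median over all genes tested lay between -0.01 and 0.00, with 48.74% above 0. In 30 nuclear members (30.6%) all 4 ARID1A-deficient libraries lay above both LacZ libraries, and in 0 they lay below. Over all genes, these shares were 9.72% and 10.4%. The nuclear members did not stand at the same level in the 4 libraries. Relative to the LacZ mean, their median deviation was 0.24 on the log2 scale in sg1 replicate 1 and 0.25 in sg5 replicate 2, the libraries that stood apart, but 0.02 in sg1 replicate 2 and 0.08 in sg5 replicate 1. The LacZ libraries lay at -0.02 and 0.02. In 60 nuclear members (61.2%), the 2 libraries that stood apart held the 2 highest values of the 6, which was so for 18.6% of all genes. Without them, the median difference was 0.04, and both remaining ARID1A-deficient libraries lay above both LacZ libraries in 31 nuclear members (31.6%), beside 19.7% of all genes.

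**Figure D2:**
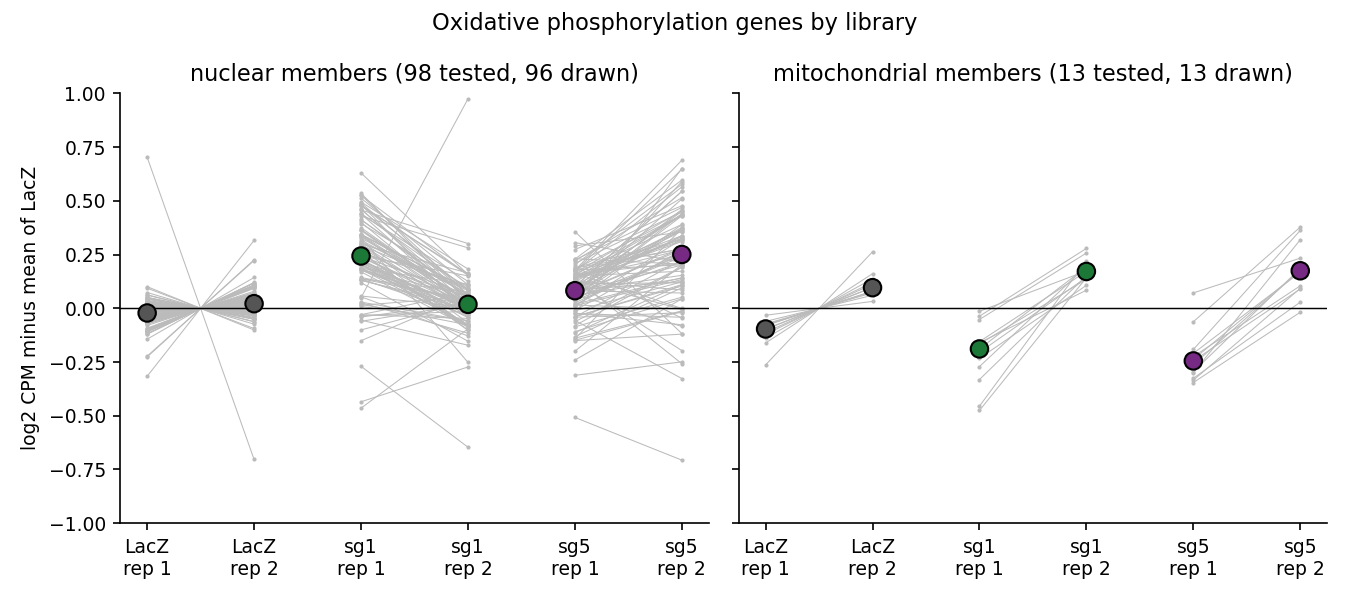
Log2 CPM of each tested member relative to the mean of LacZ (y axis) in each library (x axis), with grey lines joining the 2 replicates of a group and filled circles at the median over all tested members; NDUFA4L2 and ATP5MGL reach beyond the axis and are not drawn. The nuclear median is 0.24 and 0.25 in sg1 replicate 1 and sg5 replicate 2, and the mitochondrial median is higher in replicate 2 than in replicate 1 of every group.

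Other gene groups had their highest or lowest sums in the same 2 libraries. All 5 markers of S and G2/M phase (MKI67, TOP2A, PCNA, MCM2 and CCNB1) were measured, and their summed level was 1623 and 1694 CPM with LacZ, 2178 and 1732 with sg1, and 1706 and 2221 with sg5. The genes of the integrated stress response, which ATF4 drives when translation is curbed, went the other way. Their summed level was 3600 and 3745 CPM with LacZ, 2131 and 3555 with sg1, and 3748 and 1569 with sg5. Within that list ASNS, asparagine synthetase, was at 267 and 248 CPM with LacZ, 68.1 and 270.3 with sg1, and 314 and 42.4 with sg5. None of the 13 stress genes or the 5 cell cycle markers tested was called by edgeR (ASNS adjusted p = 0.913), and all 13 and all 5 had fold changes below and above 0, respectively. When these libraries were left out, 7 of 13 and 3 of 5 were above 0, with medians of 0.05 and 0.04. The part of these groups in the levels of the members was not tested. In RNA from a whole culture, fewer cells of a kind and less RNA per cell cannot be told apart.

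Complex I has 7 nuclear core subunits, which carry the redox centers, and 30 accessory subunits. The accessory subunits had a median log2 fold change of 0.17 for the mean of both sgRNAs, with 29 of 30 above 0, and the core subunits had a median of 0.03, with 4 of 7 above 0. Without the 2 libraries that stood apart the order turned, with 0.04 for the accessory (24 of 30 above 0) and 0.07 for the core subunits (4 of 7). The accessory subunit NDUFB1 had the smallest p-value of all members. It was at 17.4 and 17.8 CPM with LacZ, 23.7 and 21.4 with sg1, and 20.3 and 24.0 with sg5, so that all 4 ARID1A-deficient libraries lay above both LacZ libraries, and sg1 and sg5 overlapped. Its log2 fold change was 0.35 (SE 0.12, adjusted p = 0.59, edgeR). The gene lies at chr14:92116122-92121917 (GRCh38, minus strand). NDUFB6 was at 37.9 and 40.6 CPM with LacZ, 53.9 and 48.4 with sg1, and 42.0 and 53.2 with sg5 (log2 fold change 0.33, SE 0.12). NDUFS5 was at 106 and 109 CPM with LacZ, 153 and 116 with sg1, and 121 and 159 with sg5. NDUFA1, a small membrane subunit, was at 57.2 and 61.7 CPM with LacZ, 78.1 and 63.6 with sg1, and 69.4 and 82.3 with sg5. Both genes had their 2 highest values in sg1 replicate 1 and sg5 replicate 2, as did 24 of the 37 nuclear genes of complex I. Of the exonic bases of NDUFA1, 44.5% overlap RNF113A on the opposite strand, and the library kit does not mark strand.

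The core subunits lay on both sides of 0. NDUFS1, which holds iron-sulfur clusters, was at 119 and 127 CPM with LacZ, 140.3 and 133 with sg1, and 137 and 139 with sg5, above LacZ in all 4 libraries (log2 fold change 0.16, SE 0.09). NDUFV1, which binds NADH, was at 276 and 302 CPM with LacZ, 277 and 293 with sg1, and 284 and 274 with sg5 (log2 fold change -0.04, SE 0.10). NDUFS7, the subunit next to the quinone site, was at 53.3 and 61.1 CPM with LacZ, 59.2 and 52.2 with sg1, and 51.4 and 52.5 with sg5 (log2 fold change -0.09, SE 0.11). For NDUFV1 and NDUFS7 the groups overlapped.

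For complex II, all 4 genes had a fold change above 0 with both sgRNAs and for their mean, with a median of 0.19, which was 0.07 without the 2 libraries that stood apart. SDHA, the flavoprotein that oxidizes succinate, was at 276 and 305 CPM with LacZ, 359 and 307 with sg1, and 303 and 351 with sg5 (log2 fold change 0.18, SE 0.12, adjusted p = 0.755). Annotated pseudogenes of SDHA, counted apart from it, held 4.07% of the counts of the gene and its pseudogenes together. SDHC, a membrane anchor, was at 63.9 and 61.0 CPM with LacZ, 75.2 and 63.7 with sg1, and 71.2 and 78.0 with sg5. SDHD, the other anchor, was at 152 and 144 CPM with LacZ, 182 and 146 with sg1, and 163 and 189.8 with sg5. The fold changes of SDHC and SDHD were 0.20 (SE 0.11) and 0.20 (SE 0.12). SDHB, the iron-sulfur subunit, differed least, with 116 and 114 CPM with LacZ, 126 and 114 with sg1, and 116 and 127 with sg5 (log2 fold change 0.07). In all 4 genes the 2 highest values were those of sg1 replicate 1 and sg5 replicate 2, and in none of them did the groups separate.

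Complex III had a median of 0.18 over its 9 tested nuclear genes, all of which were above 0 for the mean of both sgRNAs. Without the 2 libraries that stood apart the median was 0.04, with 6 of 9 above 0. UQCRB, a small subunit near the ubiquinone site, was at 111 and 105 CPM with LacZ, 128 and 120.2 with sg1, and 132 and 138 with sg5, so that all 4 libraries lay above LacZ (log2 fold change 0.26, SE 0.10, adjusted p = 0.6). UQCRH, the hinge protein, was at 237 and 239 CPM with LacZ, 276 and 247 with sg1, and 269 and 288 with sg5. UQCRFS1, the Rieske iron-sulfur protein, was at 83.8 and 85.7 CPM with LacZ, 109 and 85.2 with sg1, and 85.4 and 106 with sg5. Its annotated pseudogenes, counted apart from it, held 12.3% of the counts of the gene and its pseudogenes together. CYC1, cytochrome c1, and UQCRC1, a core protein, had log2 fold changes of 0.00 (SE 0.11) and 0.02 (SE 0.12).

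**Figure D3:**
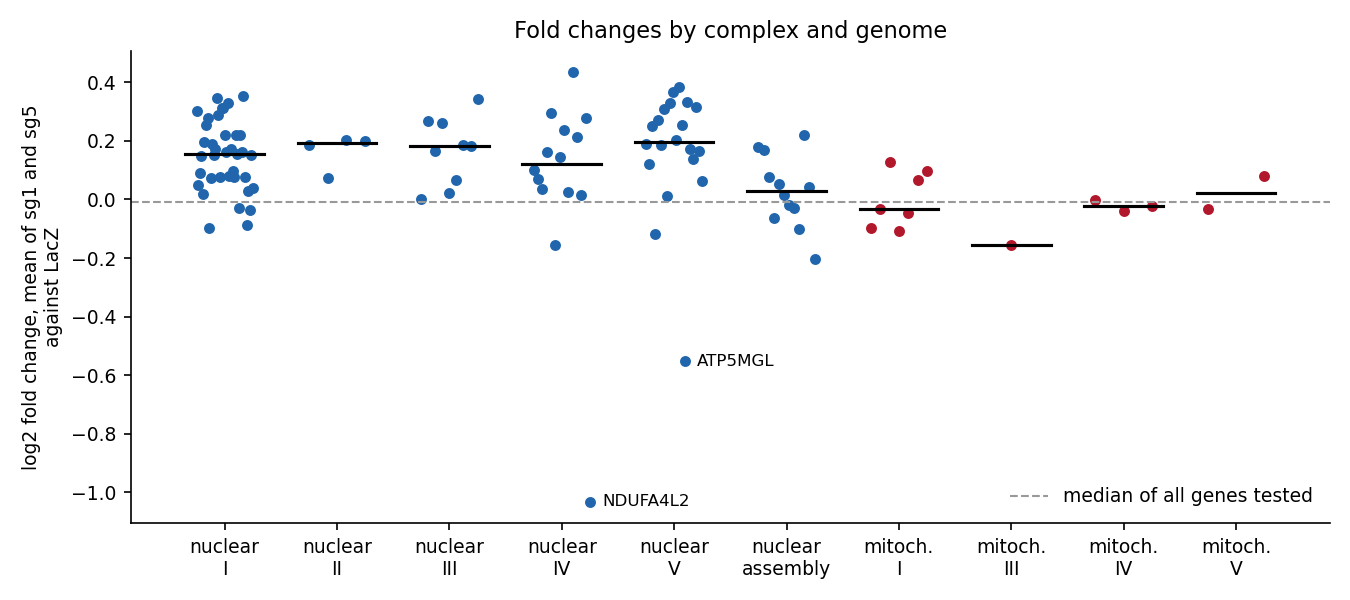
Log2 fold change of the mean of sg1 and sg5 against LacZ (y axis) for each tested member by complex and genome (x axis), with black lines at group medians and a dashed line at the median of all genes tested; the 2 readthrough genes are not drawn. Medians are 0.16, 0.19, 0.18, 0.12 and 0.20 for nuclear genes of complexes I to V, and 0.03 for assembly factors, and NDUFA4L2 and ATP5MGL lie furthest below 0.

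Complex IV had a median of 0.12 over 14 tested nuclear genes, 12 of them above 0, and of 0.06, with 9 above 0, without the 2 libraries that stood apart. COX7B had the highest log2 fold change of all members at 0.43 (SE 0.17, adjusted p = 0.652). It was at 91.6 and 89.7 CPM with LacZ, 140.3 and 101 with sg1, and 102 and 146 with sg5, above LacZ in all 4 libraries, with the 2 high values in the libraries that stood apart. The gene lies at chrX:77899438-77907373 on the plus strand. COX6B1, on the side facing the intermembrane space, was at 62.9 and 62.4 CPM with LacZ, 85.1 and 66.7 with sg1, and 70.2 and 85.8 with sg5. The abundant COX4I1, COX6A1, COX5A and COX8A had log2 fold changes of 0.10, 0.16, 0.07 and 0.02, with SE of 0.10 to 0.13.

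NDUFA4, named after complex I but a subunit of complex IV, and its paralog NDUFA4L2 had fold changes of opposite sign, neither of which was called. NDUFA4 was at 106 and 102 CPM with LacZ, 138 and 108 with sg1, and 118 and 140.3 with sg5 (log2 fold change 0.28, SE 0.13). NDUFA4L2, known as a target of hypoxia-inducible factor that lowers complex I activity, was at 2.54 and 2.499 CPM with LacZ, 0.26 and 1.85 with sg1, and 2.56 and 0.38 with sg5. Behind these values stood 134 and 126 estimated counts for the LacZ libraries, 13 and 82 for the sg1 libraries and 120 and 19 for those of sg5. It was thus low in sg1 replicate 1 and sg5 replicate 2, at -3.11 and -2.62 on the log2 scale relative to LacZ, and at -0.44 and 0.02 in the other 2 ARID1A-deficient libraries. Its log2 fold change was -1.03 (SE 0.91, adjusted p = 0.805). On the TPM scale sg5 replicate 2 was at 2.41 TPM against 4.57 and 4.95 TPM in LacZ and 0.33 TPM in sg1 replicate 1. The gene lies at chr12:57234903-57240715 (GRCh38), and 29 of its exonic bases overlap the end of SHMT2, a gene of the stress list on the opposite strand, which was at 585 and 624 CPM with LacZ, 395 and 603 with sg1, and 646 and 328 with sg5. A list of 12 hypoxia-induced genes, added after the values of NDUFA4L2 had been seen, had medians over its 10 tested genes of 0.02 and 0.05 relative to LacZ in the libraries where NDUFA4L2 was low, and 4 of 10 had fold changes above 0 (median -0.06, and 0.03 with 5 of 10 above 0 without these libraries). Its summed level was 534 and 523 CPM with LacZ, 418 and 509 with sg1, and 480 and 380.4 with sg5. VEGFA, its gene for a blood vessel growth factor, was at 245 and 261 CPM with LacZ, 128 and 228 with sg1, and 194 and 90.9 with sg5. In sg1 replicate 1 and sg5 replicate 2 the sum was lower than in LacZ by no more than VEGFA alone was.

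**Figure D4:**
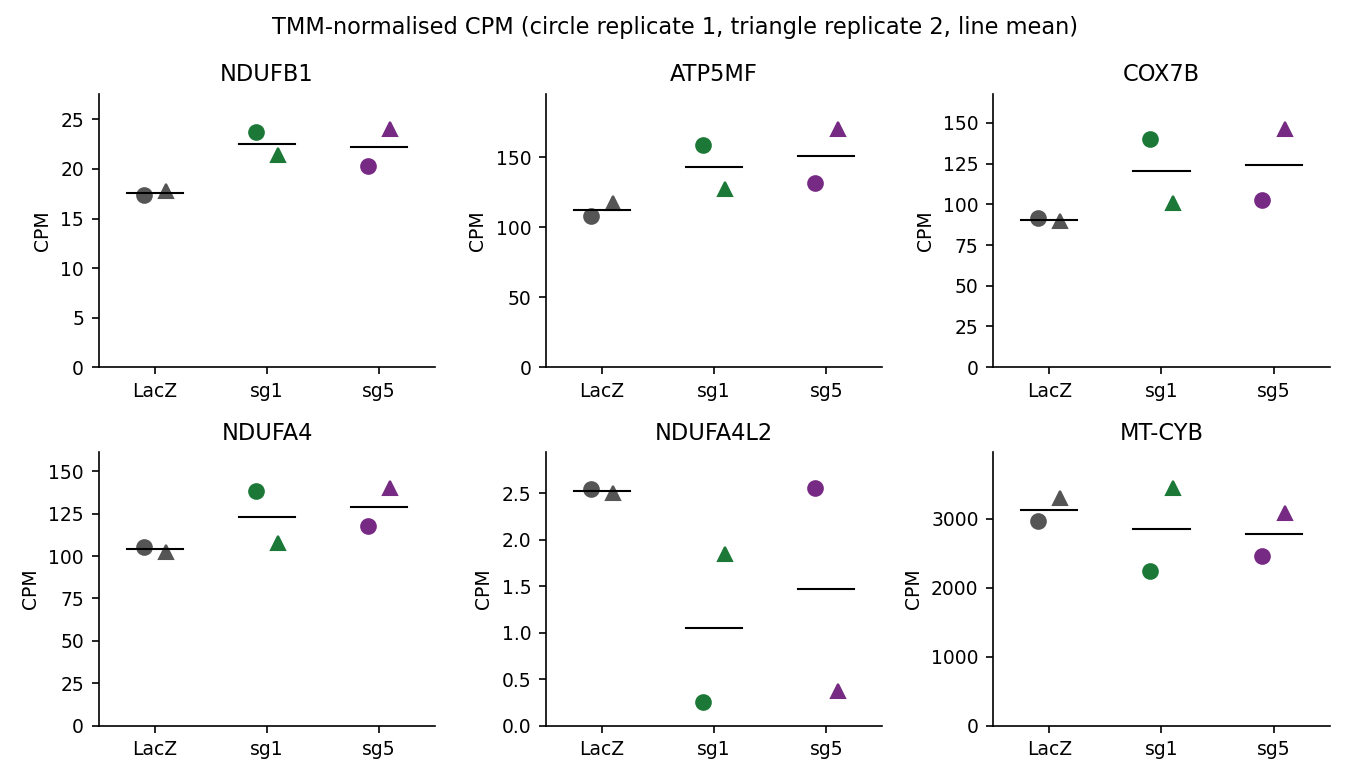
TMM-normalised CPM (y axes, from 0) of 6 members in the 3 groups, with a circle for replicate 1, a triangle for replicate 2 and a line at the group mean. NDUFB1, ATP5MF and COX7B lie above LacZ in all 4 ARID1A-deficient libraries, NDUFA4L2 is at 0.26 and 0.38 CPM in sg1 replicate 1 and sg5 replicate 2, and MT-CYB is higher in replicate 2 of each group.

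Complex V consists of a catalytic F1 head and a proton channel, Fo, joined by stalks. All 12 Fo and stalk subunits had fold changes above 0 for the mean of both sgRNAs, with a median of 0.28, and the 5 F1 subunits had a median of 0.19, with 4 above 0. Without the 2 libraries that stood apart these medians were 0.08 and 0.04, with 12 of 12 and 4 of 5 above 0, and the median of all 20 genes of complex V went from 0.20 to 0.08. ATP5MF, subunit f (chr7:99448475-99466331, minus strand), was at 108 and 117 CPM with LacZ, 158 and 128 with sg1, and 132 and 169.9 with sg5 (log2 fold change 0.39, SE 0.14, adjusted p = 0.596). ATP5MPL, a small proteolipid, was at 68.5 and 63.8 CPM with LacZ, 89.5 and 72.1 with sg1, and 79.9 and 92.0 with sg5 (log2 fold change 0.33, SE 0.12). In both genes all 4 ARID1A-deficient libraries lay above LacZ. Of the genes for subunit c, ATP5MC1 was at 71.0 and 76.4 CPM with LacZ, 101 and 75.9 with sg1, and 72.4 and 116 with sg5, whereas ATP5MC2 was at 252 and 246 CPM with LacZ, 243 and 241 with sg1, and 272 and 248 with sg5. ATP5MC3 was at 258 and 271 CPM with LacZ, 380.4 and 276 with sg1, and 272 and 397 with sg5. ATP5MC1 and ATP5MC3 thus had their high values in the libraries that stood apart, and ATP5MC2 did not.

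Among the F1 subunits, ATP5F1A and ATP5F1B, which form the catalytic hexamer, had log2 fold changes of 0.19 (SE 0.13) and 0.12 (SE 0.12). ATP5F1D, the delta subunit of the central stalk, was at 64.4 and 78.6 CPM with LacZ, 80.7 and 67.6 with sg1, and 57.3 and 59.9 with sg5. It was the only member with an unadjusted p under 0.05 between sg1 and sg5 (log2 difference 0.34, adjusted p = 1), with both sg1 values and both LacZ values above both sg5 values. ATP5IF1, the inhibitor that stops complex V from running backward, was at 70.2 and 75.7 CPM with LacZ, 89.6 and 81.7 with sg1, and 74.8 and 86.1 with sg5 (log2 fold change 0.19, SE 0.10). ATP5MGL, a paralog of the subunit g gene, had a log2 fold change of -0.55 (SE 0.62) at no more than 0.32 CPM in any library.

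The 12 assembly factors had a median log2 fold change of 0.03, with 7 above 0 (-0.02 with 5 above 0 without the 2 libraries that stood apart), and none of them separated the ARID1A-deficient from the LacZ libraries. NDUFAF1, an early complex I factor, was at 20.2 and 19.8 CPM with LacZ, 23.5 and 19.6 with sg1, and 20.8 and 27.0 with sg5. SDHAF4, which assists the flavoprotein of complex II, was at 7.21 and 6.27 CPM with LacZ, 4.96 and 5.56 with sg1, and 7.42 and 5.62 with sg5 (log2 fold change -0.20, SE 0.18). NDUFAF8 had the highest TPM of this group (93.4) and a log2 fold change of -0.03 (SE 0.19). The readthrough genes ATP5MF-PTCD1 and NDUFC2-KCTD14 share most of their exonic bases with neighboring genes, and their fold changes of -0.05 and -0.21 had SE of 0.13 and 0.51.

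The 13 mitochondrial genes had fold changes on both sides of 0 and followed the replicate number. Their log2 fold changes for the mean of both sgRNAs lay between -0.16 (MT-CYB, SE 0.18) and 0.13 (MT-ND3, SE 0.14), with a median of -0.03, or -0.04 without the 2 libraries that stood apart. Relative to the LacZ mean, their median was -0.10 and 0.10 for the LacZ libraries, -0.19 and 0.17 for sg1, and -0.24 and 0.17 for sg5. All 13 were higher in replicate 2 than in replicate 1 in every group, which was so for 10.3% of all genes and, among the 98 nuclear members, for NDUFAF6 alone. MT-ND1, of the complex I membrane arm, was at 2929 and 3462 CPM with LacZ, 2322 and 3713 with sg1, and 2525 and 3396 with sg5. MT-CYB, cytochrome b, was at 2963 and 3303 CPM with LacZ, 2250 and 3453 with sg1, and 2462 and 3089 with sg5. MT-CO1, which holds the oxygen-binding site of complex IV, was at 12182 and 13562 CPM with LacZ, 11276 and 14687 with sg1, and 10901 and 14509 with sg5. MT-ATP6, of the proton channel of complex V, was at 5149 and 6010.3 CPM with LacZ, 4980 and 5898 with sg1, and 4639 and 6286 with sg5. In each of these genes the ARID1A-deficient values spread on both sides of the LacZ values.

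The replicate number was then tested as a term of the model, a comparison added after this pattern had been seen. For replicate 2 against replicate 1, 0 members and 0.0% of all genes passed an FDR of 0.1. At an unadjusted p under 0.05, 11 of the 13 mitochondrial genes were higher in replicate 2, beside 1.19% of all genes, and 0 nuclear members were. The 13 genes are cut from shared long RNAs and are not independent. Neither this count nor that of all 13 above therefore stands for separate observations. The log2 differences of the 13 genes ranged from 0.25 (MT-ND3, SE 0.11) to 0.47 (MT-ND6, SE 0.11), and each had an adjusted p of 1. The labels do not say what the replicate numbers have in common. MT-ND6 lies on the other strand of the mitochondrial genome than the remaining 12 genes and, the kit not marking strand, its counts can include reads from the opposite transcript. For each of the 13 genes, annotated pseudogenes held at most 0.62% of the counts of the gene and its pseudogenes together.

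The ratio of the summed TPM of mitochondrial to nuclear members combined both patterns. It was 4.93 and 5.43 with LacZ, 3.61 and 5.59 with sg1, and 4.19 and 4.68 with sg5. The lowest ratio belonged to sg1 replicate 1, in which nuclear members were high (23449 summed TPM, against 19662 and 20087 in LacZ) and mitochondrial genes were low (84664 summed TPM, against 96942 and 109026). In sg5 replicate 2 nuclear members were at 23106 and mitochondrial genes at 108090 summed TPM. The remaining libraries were at 19903 and 111201 for sg1 replicate 2 and at 20558 and 86131 for sg5 replicate 1. Both sg5 ratios lay below both LacZ ratios, whereas the sg1 ratios lay below and above them all, and these differences were not tested.

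**Figure D5:**
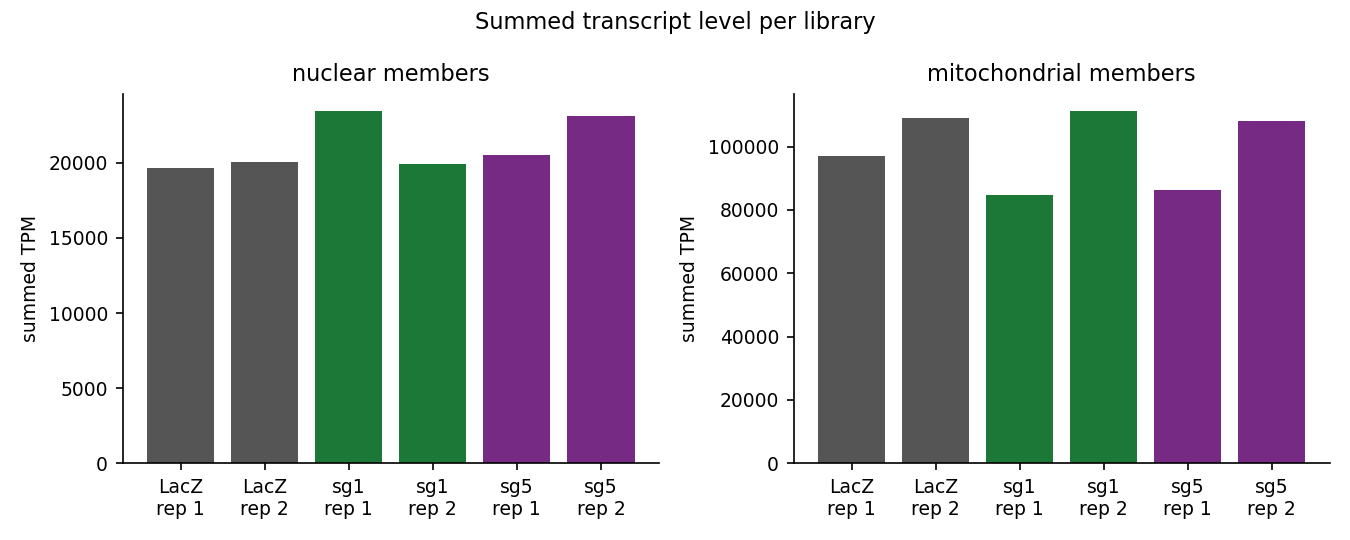
Summed TPM (bars from 0) of the 104 nuclear and the 13 mitochondrial members in each library. Nuclear members are highest in sg1 replicate 1 (23449) and sg5 replicate 2 (23106), and mitochondrial members are higher in replicate 2 than in replicate 1 in each group.

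Genes that serve the respiratory chain without belonging to it were examined by lists. None of their genes was called in any comparison. Of 22 tested genes of protein import and the outer membrane, 20 had fold changes above 0 for the mean of both sgRNAs, with a median of 0.18, and the summed level was 4551 and 4707 CPM with LacZ, 5464 and 4593 with sg1, and 4788 and 5892 with sg5. This was the same pattern by library as in the nuclear members. VDAC1, the outer membrane channel, had a log2 fold change of 0.14 (SE 0.12). Of 26 genes for expression of the mitochondrial genome, 22 were above 0 (median 0.09), among them TFAM, its packaging and transcription factor, at 124 and 124 CPM with LacZ, 141 and 125 with sg1, and 136 and 153 with sg5 (log2 fold change 0.16, SE 0.10). The citric acid cycle had a median of 0.08 over 17 genes, with 16 above 0, and the other assembly factors 0.06 over 36, with 21 above 0. The electron carriers and exchangers were at -0.01 over 17, with 8 above 0. Among them, CYCS, cytochrome c, was at 289 and 282 CPM with LacZ, 393 and 268 with sg1, and 297 and 432 with sg5, and SLC25A5, which exchanges ADP for ATP, had a log2 fold change of 0.11 (SE 0.10). The nuclear regulators of respiration had a median of 0.04 over 10 genes, with 6 above 0, and PPARGC1A, a coactivator of this program, was between 0.14 and 0.595 CPM in every library. Without the 2 libraries that stood apart, the medians were 0.06 for import and the outer membrane (16 of 22 above 0), 0.03 for expression of the mitochondrial genome (18 of 26), 0.01 for the citric acid cycle (11 of 17), 0.00 for the other assembly factors (18 of 36), 0.05 for carriers and exchangers (11 of 17) and -0.05 for regulators (3 of 10).

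Effective transcript length was set beside the fold changes, as a description. Across the 98 tested nuclear genes, the Spearman correlation of effective length with the log2 fold change for the mean of both sgRNAs was -0.289, and across 18403 genes that are not members it was 0.057. Without the 2 libraries that stood apart these values were -0.137 and 0.021. These genes share the same 6 libraries and are not independent. The 35 nuclear members with an effective length under 500 bases had a median log2 fold change of 0.19, the 40 between 500 and 1000 bases had 0.16, the 19 between 1000 and 2000 bases had 0.07, and the 4 over 2000 bases had 0.17. Among the other genes, these length classes had medians of -0.04, -0.04, -0.02 and 0.01. For the members, in the same order, they were 0.08, 0.04, 0.02 and 0.09 when those libraries were left out. The part of transcript length in the fold changes of the members was not tested.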

How the data were processed

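RNA of 6 NB4 libraries (LacZ, sg1 and sg5, 2 replicates each) was prepared with an unstranded kit. The authors quantified transcripts with kallisto, and the deposited estimated counts and TPM (levels scaled to transcript length and library size) are its output; hg19 and DESeq2 are also named in the submitters' processing notes, and a kallisto version is stated in the methods for the mouse libraries of the study, not for these. TPM divides by effective length, so that short transcripts such as MT-ATP8 are imprecise. Of 196354 transcripts per table, 181857 (92.62%) were matched to GENCODE 29, whose GRCh38 coordinates are given. The matched transcripts, which held 95.4 to 95.5% of the counts, were summed to 52992 genes.

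Sums were rounded, filtered (filterByExpr, minimum count 10), scaled by TMM and tested with the quasi-likelihood test of edgeR 4.0.16 (R 4.3.3) over all 6 samples with group as the only term, a step checked on simulated data. P-values were adjusted by Benjamini-Hochberg over 18514 genes and called at an FDR of 0.1. Alternatives used DESeq2 1.42.0, limma 3.58.1 on log2(TPM + 1) and log2(TPM + 0.1), other scalings, filters and sample sets, and a replicate block. Replicates of each group differed by more than sampling noise.

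The members and lists were chosen with earlier results of these data known. For these cells the study reports gene sets enriched with both sgRNAs, among them oxidative phosphorylation and cell cycle. The counts and medians of members set beside all genes are therefore a description and no independent support. Genes were named by rule: ARID1A, members called, the 5 members with the smallest p in each direction, the mitochondrial genes, complex II, the most abundant nuclear member of each complex, tissue isoforms and a list of examples. NDUFA1, NDUFA6, NDUFAF6, ASNS, SHMT2 and VEGFA were named after their values were seen.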

Additional observations from a re-analysis of the deposited data

Results flagged for a closer look

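ARID1A was flagged for its direction by sgRNA: both sg1 libraries lay above both LacZ libraries and both sg5 libraries below both. For sg1 this rests on a near tie, with 191.1 CPM in sg1 replicate 2 against 190.7 CPM in LacZ replicate 2. The sg1 and sg5 means differed by 66.63 CPM. The difference between sg1 and sg5, tested by edgeR, was 0.58 on the log2 scale (SE 0.14, adjusted p = 1). Among the 4 ARID1A-deficient libraries, 3 of 71 values looked at had a single library far from the other 3. The rule used marks about 1 in 20 groups of 4 independent, normally distributed values. These libraries come from both sgRNAs and the values share them, so that rate does not say what chance would give here. NDUFS7 was high in sg1 replicate 1 at 59.24 CPM. COX7A2L was high in sg5 replicate 1 at 81.75 CPM. HDC, histidine decarboxylase, was low in sg5 replicate 1 at 7.8 CPM.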

How the results depend on the processing

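No member was called with DESeq2, limma, other scalings, a mean of at least 50 counts, an FDR of 0.05, or with any sample left out (0 to 0), and the replicate block also gave 0 members. Without a low-count filter, 1 member was called for sg1 (NDUFA4L2), 1.0 for sg5 (COX7B) and 2 for the mean of both (COX7B, adjusted p = 0.0383, and NDUFA4L2, adjusted p = 0.0219, edgeR), among 345, 632 and 701 calls over all genes against 7, 18 and 31. DESeq2 called 116, 201 and 264 genes and the replicate block 1, 1 and 3, while without sg1 replicate 1 and sg5 replicate 2, where 1 residual degree of freedom remained, 4 members (MT-CYB, MT-ND1, MT-ND4L and MT-ND5) were called between sg1 and sg5, beside 215 of 19255 genes (1.12%). In that fit sg1 and sg5 are 1 library each, assumed to vary like the LacZ pair, which alone gives the spread. Same-numbered samples of sg1 and sg5 deviated in opposite directions (r = -0.206, beside 0.072 and 0.012 for LacZ with sg1 and sg5), and the main fit did not take the numbers as pairs. Both libraries that stood apart carry different numbers, so this r cannot show whether same-numbered samples had something in common. The mitochondrial genes were all higher in replicate 2 in every group. A crossed block, added after seeing the data, called 0 members and 59, 157 and 194 genes. With the replicate block EPX and HDC were no longer called (adjusted p = 0.173 and 0.145). The nuclear median for the mean of both sgRNAs was 0.0424 without both libraries that stood apart, 0.0973 to 0.2278 with any sample left out, and above 0 in every other alternative. With a sample left out it ranged from 0.0117 (without sg1 replicate 1) to 0.253 (without sg1 replicate 2) for sg1 and from 0.075 to 0.2684 for sg5, and the mitochondrial medians from -0.1367 to 0.0748 for the mean of both. Of 1383 values for 63 named genes, 1288 kept direction and side of the threshold and 80 in 27 genes changed sign. Log2 fold changes that did so were, for MT-CO1, 0.0026 with DESeq2 or its size factors and 0.0011 with a length offset; with upper quartile scaling, UQCRC1 -0.001, CYC1 -0.0223, COX8A -0.0068 and ATP5MC2 -0.0097; on log2(TPM + 1) and log2(TPM + 0.1), UQCRC1 -0.0007 and -0.0008, CYC1 -0.0392 and -0.0394, COX7A2L -0.0183 and -0.0185, COX8A -0.0466 and -0.0466, and ATP5MC2 -0.0404 and -0.0405. Without both libraries that stood apart, MT-ND5 was at -0.0306, UQCRC1 -0.0949, CYC1 -0.0844, COX5A -0.0442, COX8A -0.0657, CYCS -0.017 and ATF4 0.1063. CYC1 was at -0.0 without a filter, -0.0099 with a mean of at least 50 counts and -0.0011 with the crossed replicate block, and COX8A at -0.0021 with the replicate block and length offset. With each sample left out in turn, these genes changed sign: ARID1A -0.2089 to 0.0884, ATP5F1D -0.2487 to 0.0365, MT-ATP6 -0.1568 to 0.0855, MT-ATP8 -0.0473 to 0.2273, MT-CO1 -0.1191 to 0.0997, MT-CO2 -0.1309 to 0.0658, MT-CO3 -0.1583 to 0.0948, MT-ND1 -0.2739 to 0.0562, MT-ND2 -0.1367 to 0.0646, MT-ND4 -0.2263 to 0.0068, MT-ND4L -0.1604 to 0.0648, MT-ND5 -0.109 to 0.2416, MT-ND6 -0.1372 to 0.3879, NDUFAF8 -0.2315 to 0.2192, ATP5MF-PTCD1 -0.158 to 0.0781, NDUFS7 -0.1781 to 0.0167, NDUFV1 -0.0935 to 0.032, UQCRC1 -0.053 to 0.1056, CYC1 -0.0975 to 0.1169, COX5A -0.007 to 0.1542, COX7A2L -0.033 to 0.0953, COX8A -0.0578 to 0.0975, COX6B2 -0.4818 to 0.2694, ATP5MC2 -0.0138 to 0.0413, PPARGC1A -1.05 to 0.0006, ATF4 -0.3131 to 0.0656. For these changes of sign the cause was not tested.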
